A study of Mus musculus with 34 samples.

Results

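Coronal fractions 10, 11 and 12 are 3 neighbouring slabs of the brain of 1 mouse, 3 of the 15 fractions of its coronal series and 3 of 34 fractions in all. They were chosen by their number and set against the other 12 coronal fractions, 1 to 9 and 13 to 15. The animals were 3 male C57BL/6J mice aged 3 days with no treatment or genetic change named in the labels, and each brain was cut along a single axis. Whether fraction 1 is the front or the back of the coronal series is not given in the labels. Mouse 1 gave the 15 coronal fractions, mouse 2 gave 8 horizontal fractions and mouse 3 gave 11 sagittal fractions. A fraction pools 100 serial sections of 5 μm, which makes it 500 μm thick, except that sagittal fractions 1 and 11 each pool 2 cut fractions. A fraction has 1 Agilent array with a single dye, so that no position has a replicate and the tests below compare positions in 1 mouse.

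The working name of the block is striatum and basal forebrain. The striatum is the input station of the basal ganglia, and nearly all of its neurons are GABA-releasing projection neurons. They fall into a class that carries the dopamine receptor gene Drd1 and substance P and a class that carries Drd2, the adenosine receptor gene Adora2a and enkephalin, and in both classes dopamine and adenosine act through cyclic AMP. The basal forebrain beneath it holds cholinergic and pallidal neurons, whose development uses the transcription factor genes Lhx8, Gbx1 and Isl1. Retinoic acid, the hormone made from vitamin A, acts in the developing striatum through receptors that pair a RAR with an RXR protein on DNA.

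Values are log2 array signals relative to the 75th percentile of the same array, so that 0 is the signal at that percentile. Of 43199 probes in the deposited table, 33788 were well above background in at least 3 coronal fractions, and these are all the probes tested here. In fractions 10, 11 and 12 the scanner software called 33328, 33205 and 31278 spots well above background, within the range of 29598 to 36406 over the 15 coronal arrays, and no spot was saturated. Fractions 10 and 11 lay on slide 3 with fractions 9, 13, 14 and 15, while fractions 1 to 8 lay on slide 2. Fraction 12 was the only coronal fraction on slide 5, and the scanning days divide the coronal arrays in the same way as the slides. Over all probes the median difference of the block from the other 12 was 0.08, and 59.8% of probes were above 0. In bulk tissue, fewer cells of a type and less RNA per cell cannot be told apart.

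Rarb and Rxrg, which lead the comparison below, encode a retinoic acid receptor and its partner of the RXR family. The promoters of these genes and of Pde10a are shown from the RefSeq table on build GRCm38.p6, 250 bases before to 50 bases after the start of the transcript and on the strand of the gene. In the Rarb window, at chr14:16575427-16575726 on the minus strand, the capitals mark GGTTCA and AGTTCA with 5 bases between them, a direct repeat of the kind known as a retinoic acid response element. It begins 53 bases before the start.

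Rarb: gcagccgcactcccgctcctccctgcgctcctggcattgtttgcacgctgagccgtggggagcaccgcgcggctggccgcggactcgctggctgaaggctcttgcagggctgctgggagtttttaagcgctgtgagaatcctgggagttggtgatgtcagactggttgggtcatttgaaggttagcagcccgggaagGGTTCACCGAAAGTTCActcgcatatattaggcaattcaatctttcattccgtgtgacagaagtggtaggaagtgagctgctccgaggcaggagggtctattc

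That repeat, which was chosen after the result for Rarb was seen, stood on either strand of 2 of the 32851 promoter windows in the table, those of Rarb and Gm52524. Of the 23 genes called higher in the block 20 had a window, and in 45% of them a window had a ratio of observed to expected CpG above 0.6, against 67.5% of the 12480 genes with a window among those tested and 38.3% of all 27025 genes in the table. The letters CAGCTG, an E-box that reads the same on both strands, stood in a window of 9 of the 20 genes, or 45%, against 18.5% of the genes tested and 18.3% of all genes in the table. The 20 genes have more windows each, 36 in all, and per window the share was 30.6% against 16% of the windows of genes tested. The motif TATAAA, searched on both strands like the others, was in windows of 15%, 10.4% and 15.7% of these genes (8.33% of windows against 8.56%), and TAATTA in windows of 5%, 3.79% and 6.12%. No motif overlaps another in the windows shown. Below, capitals mark CAGCTG in a window of Rxrg, at chr1:167618015-167618314 on the plus strand, and in a window of Pde10a, at chr17:8849735-8850034 on the plus strand. Each of these genes has another window in the table without it. The shares are descriptions and were not tested.

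Rxrg: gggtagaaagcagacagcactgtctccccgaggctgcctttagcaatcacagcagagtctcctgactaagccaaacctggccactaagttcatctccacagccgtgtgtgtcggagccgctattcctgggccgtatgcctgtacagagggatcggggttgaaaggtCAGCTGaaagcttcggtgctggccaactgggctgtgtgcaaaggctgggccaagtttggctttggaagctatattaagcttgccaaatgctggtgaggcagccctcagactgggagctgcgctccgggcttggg

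Pde10a: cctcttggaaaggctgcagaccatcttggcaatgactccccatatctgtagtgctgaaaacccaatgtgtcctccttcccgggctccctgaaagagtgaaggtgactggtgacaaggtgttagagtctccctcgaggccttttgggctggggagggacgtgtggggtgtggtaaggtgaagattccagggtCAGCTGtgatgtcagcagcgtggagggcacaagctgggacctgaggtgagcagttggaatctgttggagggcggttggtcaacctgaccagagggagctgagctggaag

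Against the other 12 coronal fractions, 36 probes were higher in fractions 10 to 12 (0.107% of the 33788 tested) and 13 were lower (0.0385%), by limma with Benjamini-Hochberg adjusted p under 0.05. The 36 probes included 29 that are named for 23 genes. Retinoid receptors (Rarb, Rxrg), an orphan G protein-coupled receptor (Gpr6), a cyclic AMP-regulated phosphoprotein (Arpp21) and cyclic nucleotide phosphodiesterases (Pde10a, Pde7b) were among them. Of the 36, 35 had all 3 fractions above each of the other 12, a pattern that 1.04% of all probes showed. The 36 were chosen on these same values, so that this count follows largely from the choice. Differences ran from 0.72 to 4.55 with a median of 1.55, and the largest was of a probe that passed the filter only through the block. The highest fraction was 11 for 22 of the 36, 12 for 11 and 10 for 3. Outside the block the highest of the other 12 was fraction 9 for 21 of the 36, against 4.88% of all probes. All 13 lower probes lay below each of the other 12, as did 0.965% of all probes, with differences from -2.38 to -0.75. Of the 13, 6 were not well above background in any of fractions 10 to 12, among them the probe at -2.38. The sizes of their differences are thus taken against background signal. That count, too, follows largely from the choice of probes on the same values.

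The calls rest on few arrays. Without fraction 11 there were 3 higher and 1 lower probe, without fraction 12 there were 4 and 2, without fraction 10 there were 17 and 8, and without fraction 13 there were 106 and 85. Leaving out 1 of fractions 2 to 8 gave 18 to 23 higher and 6 to 11 lower probes. With the slide as a random block 9 higher and 4 lower probes were called. With the slide as a fixed block, or on slide 3 alone, limma called 0 and 0, with 1275 higher and 831 lower, and 1019 and 430, at an unadjusted p under 0.05. Within slide 3, where fractions 10 and 11 stood against 9, 13, 14 and 15, the 36 higher probes differed by 0.53 to 3.48 with a median of 1.38. Their sign there is fixed by the choice of probes on the same arrays, and 52.9% of all probes were above 0. Rarb and Rxrg were called in each fit that left out 1 of fractions 10, 11 and 12 and with the slide as a random block, and not with the slide as a fixed block.

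**Figure D1:**
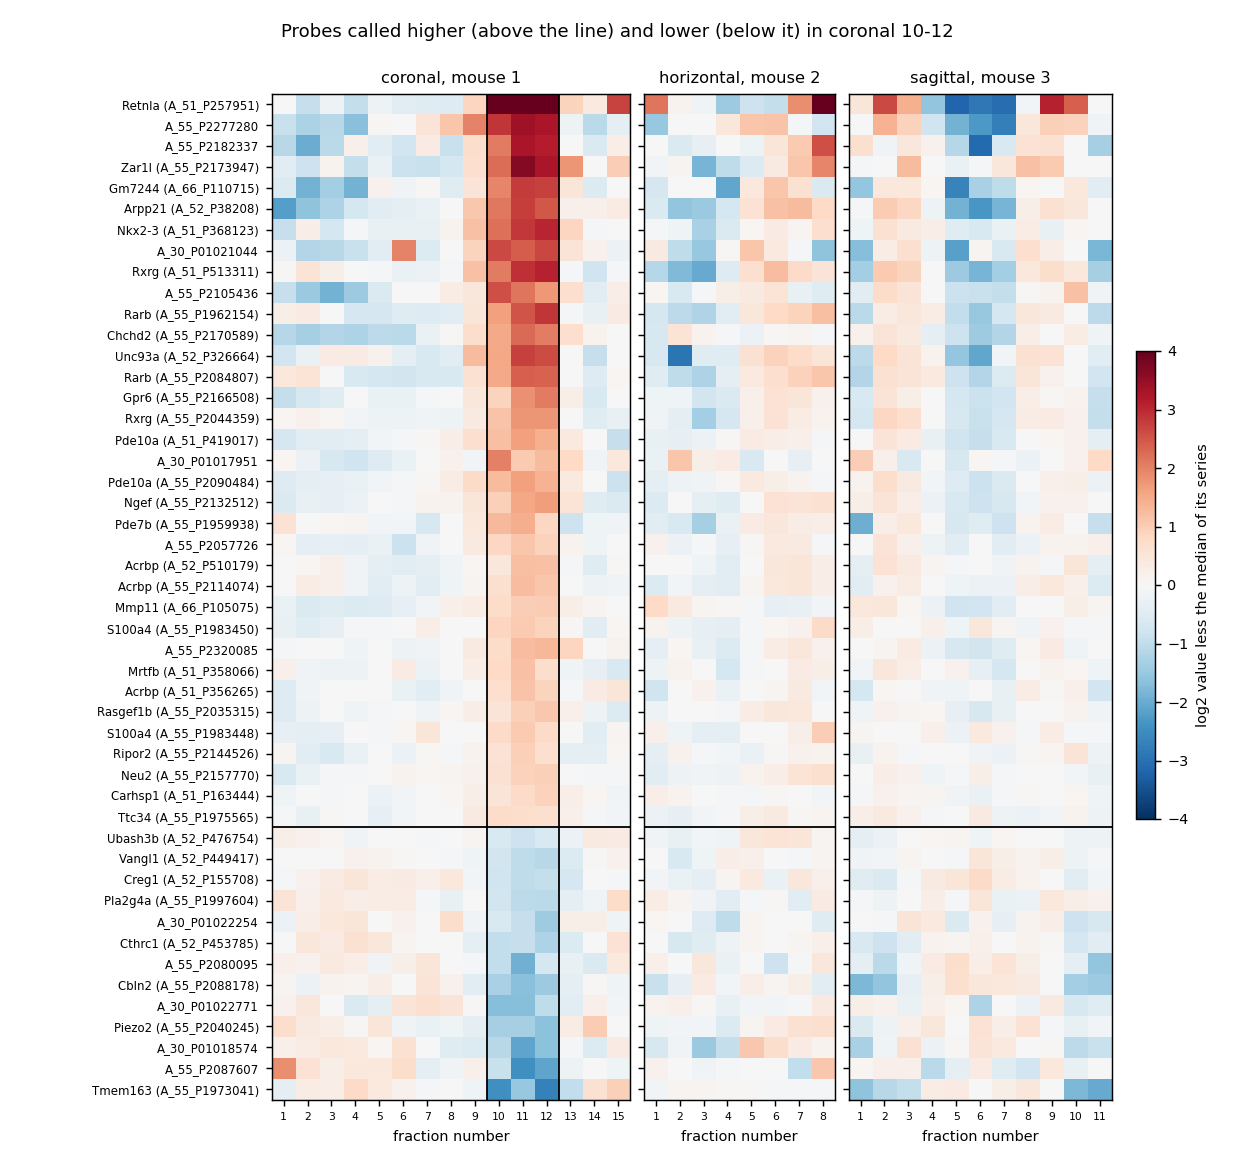
Log2 values of 35 of the 36 probes called higher (above the line) and the 13 called lower (below it) in coronal fractions 10 to 12, each less the median of its own series, in the coronal, horizontal and sagittal fractions of the 3 mice. Rows run from the difference of 4.55 at the top to -2.38 at the bottom. In many rows above the line fraction 9 is the highest outside the block.

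Rarb lay at 2.36, 3.25 and 3.58 in fractions 10, 11 and 12, and between 0.05 and 1.21 with a median of 0.57 in the other 12. The groups did not overlap, and fraction 9 was the highest of the others. The difference was 2.48 ± 0.28 (SE), or 5.59-fold, with an adjusted p of 0.0021. Another Rarb probe differed by 2.27 ± 0.31. Rxrg lay at 4.73, 5.58 and 5.74 in the block, and between 1.85 and 3.83 with a median of 2.60 elsewhere. The rise began in fraction 9 and ended between fractions 12 and 13, where Rxrg went from 5.74 to 2.60. Its difference was 2.66 ± 0.30, or 6.32-fold, with an adjusted p of 0.0021, and its other probe differed by 1.65 ± 0.17.

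Of 19 genes listed for the retinoic acid pathway, 17 were measured, 2 were called higher and 0 lower, against 0.107% and 0.0385% of all probes, and their median difference was 0.15 against 0.08 over all probes. At an unadjusted p under 0.05, 4 were higher and 3 lower (23.5% and 17.6%, against 9.54% and 4.85% of all probes), and Aldh1a1 lay below each of the other 12 fractions. The receptor genes Rara and Rarg differed by 0.18 and -0.07, and Rxra and Rxrb by -0.36 and 0.40, with adjusted p between 0.31 and 0.89. Of the enzymes that make retinoic acid, Aldh1a1 differed by -1.38, Aldh1a2 by -0.96 and Aldh1a3 by 0.72, and Cyp26b1, which breaks it down, by -1.21, with adjusted p between 0.31 and 0.42. The binding protein gene Crabp1 differed by 1.52, with an adjusted p of 0.24.

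**Figure D2:**
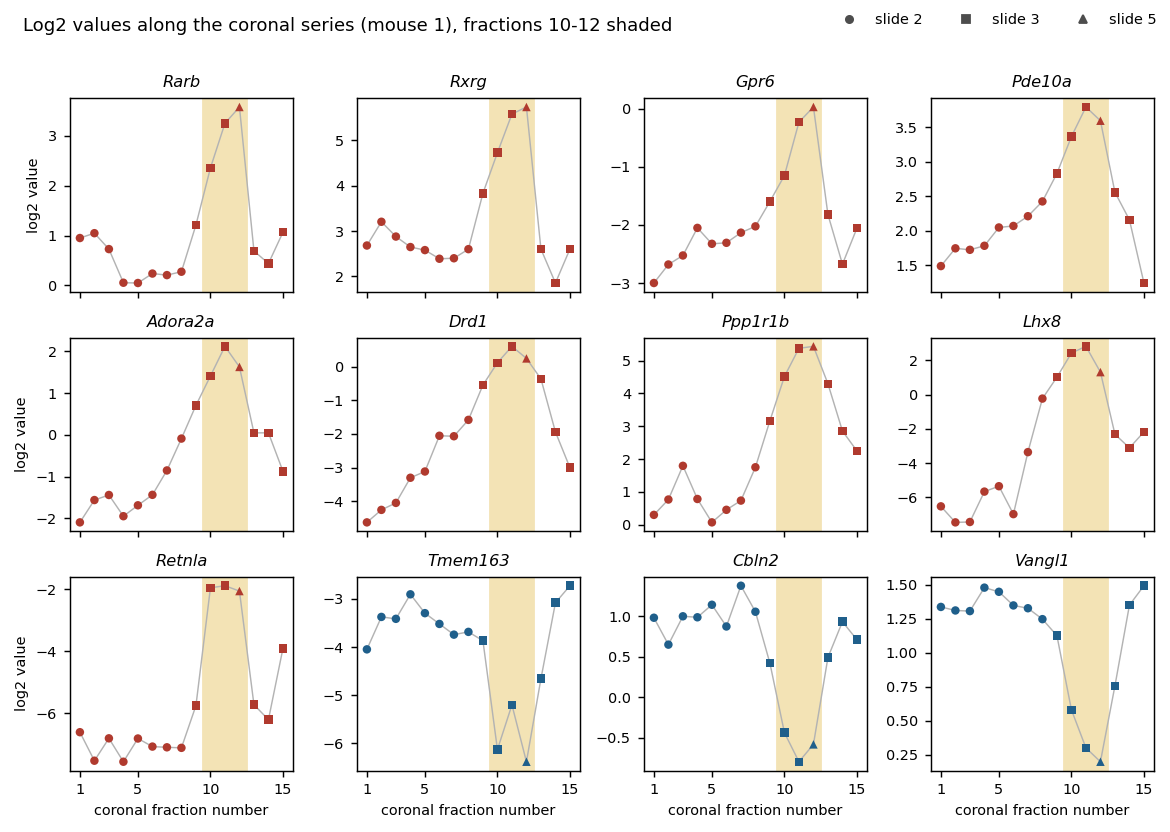
Log2 values (relative to the 75th percentile of the array) of 12 genes in each of the 15 coronal fractions, with fractions 10 to 12 shaded and the slide of each array given by the marker. Rarb and Rxrg rise from fraction 9 and drop at fraction 13, Drd1 and Ppp1r1b slope up to the block over many fractions, Retnla steps up at fraction 10, and Tmem163, Cbln2 and Vangl1 dip inside it.

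An orphan receptor gene and genes of cyclic nucleotide breakdown were also among those called. Gpr6, an orphan receptor of the Drd2 class of neurons, lay at -1.15, -0.23 and 0.03 in the block and between -3.0 and -1.60 elsewhere, a difference of 1.81 ± 0.27 (adjusted p 0.016). Pde10a, the phosphodiesterase that degrades cyclic nucleotides in striatal neurons, lay at 3.36, 3.79 and 3.59 in the block and between 1.24 and 2.83 elsewhere. Its difference was 1.56 ± 0.26 (adjusted p 0.03), and a further Pde10a probe differed by 1.52. Pde7b, a cyclic AMP phosphodiesterase, lay at -2.17, -2.02 and -2.64 in the block and between -4.32 and -2.91 elsewhere, a difference of 1.27 ± 0.23 (adjusted p 0.048), while another Pde7b probe, above background in 7 of the other 12, differed by 0.88 (adjusted p 0.53).

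Arpp21 encodes a cyclic AMP-regulated phosphoprotein. One of its probes lay at 2.65, 3.30 and 3.02 in the block and between -1.68 and 1.60 elsewhere, a difference of 2.89 ± 0.51 (adjusted p 0.04). The gene has 2 further probes, which differed by 0.26 and -0.03, so that the result belongs to the probe and not to every transcript of the gene. Of the 24 genes listed for striatal cyclic AMP and G protein signalling, 5 were called higher and 0 lower, against 0.107% and 0.0385% of all probes, and 9 had all 3 fractions above the other 12 (37.5%, against 1.04% of all probes). The median difference was 0.69. Ppp1r1b, which encodes the dopamine-regulated phosphoprotein DARPP-32, lay at 4.51, 5.37 and 5.43 in the block and between 0.07 and 4.29 elsewhere. It did not overlap the other fractions but sloped through fractions 9 (3.17) and 13 (4.29), and its difference of 3.50 ± 0.73 missed the threshold (adjusted p 0.087). Adcy5, the adenylyl cyclase of the striatum, differed by 0.26 (adjusted p 0.41).

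All 32 genes listed as markers of striatal projection neurons were measured. All 32 differences were above 0 (100%, against 59.8% of all probes), with a median of 1.28. Of them 5 were called higher, among them Rarb, Rxrg, Gpr6 and Pde10a, and 17 lay above each of the other 12 fractions, or 53.1% against 1.04% of all probes. In 24 the highest coronal fraction was 10, 11 or 12, against 23% of all probes. When the 15 fractions were fitted as 5 blocks of 3, a fit that takes the differences between the other blocks out of the error, 22 of the 32 were higher than the mean of the other blocks, while 6.67% of all probes were higher and 3.57% lower. The members were chosen with results of these data known, and their counts are a description. The lists also overlap. Rarb and Rxrg are on the retinoic acid list too. Gpr6, Pde10a, Ppp1r1b and Adcy5 are among members shared with the signalling list, and Drd1, Drd2 and Adora2a among those shared with the receptor list below. The counts of these lists are therefore not separate results.

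Drd1 lay at 0.12, 0.61 and 0.25 in the block and between -4.63 and -0.36 with a median of -2.54 elsewhere. It climbed from -2.05 in fraction 6 to -0.54 in fraction 9 and was still at -0.36 in fraction 13. The difference was 2.90 ± 0.76 (SE), with an adjusted p of 0.18. Adora2a lay at 1.41, 2.12 and 1.62 in the block and between -2.10 and 0.70 elsewhere, a difference of 2.65 ± 0.51 (adjusted p 0.056). Neither gene overlapped the other fractions, and neither passed the threshold. Drd2 lay at -2.42, -2.03 and -2.27 in the block and between -4.04 and -2.76 elsewhere, a difference of 1.02 ± 0.24 (adjusted p 0.12). The neuropeptide genes were less tied to the block. Penk, which encodes the enkephalin precursor, lay at 4.72, 5.32 and 4.85 there, and reached 5.15 in fraction 3 and 5.12 in fraction 2. Tac1, the substance P gene, lay at 4.06, 4.23 and 4.39 there and was highest, at 4.51, in fraction 2. Their differences were 0.99 (adjusted p 0.37) and 0.78 (adjusted p 0.54). Of 13 measured genes for dopamine, adenosine and acetylcholine receptors limma called 0 (5 higher and 1 lower at an unadjusted p under 0.05, or 38.5% and 7.69%, against 9.54% and 4.85% of all probes) and 5 (38.5%, against 1.04%) lay above each of the other 12 fractions, namely Drd1, Drd2, Adora2a, Adora1 and Chrm1.

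Markers of the basal forebrain were split. Lhx8, the transcription factor gene of cholinergic and pallidal neurons, lay at 2.43, 2.82 and 1.31 in the block. In the other 12 it ranged from -7.46 to 1.02 with a median of -4.35, and it was well above background in 6 of them. It rose from -6.98 in fraction 6 to 1.02 in fraction 9 and fell from 1.31 in fraction 12 to -2.31 in fraction 13. The difference was 6.32 ± 1.57 (SE) with an adjusted p of 0.16. Isl1 lay at 0.36, 0.95 and 0.56 in the block and between -5.19 and -0.09 elsewhere, a difference of 3.37 ± 0.89 (adjusted p 0.18).

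Among genes of mature cholinergic neurons, Chat and Ngfr were highest outside the block. Chat, which encodes the enzyme that makes acetylcholine, lay at -3.09, -3.06 and -3.43 there and at -1.76 in fraction 3, its highest. The neurotrophin receptor gene Ngfr lay at 0.62, 0.76 and 0.55 against 3.11 in fraction 3. Gbx1 lay at -2.73, -1.66 and -4.01 against -0.87 in fraction 1. Differences of Chat, Ngfr and Gbx1 were 0.52, -0.82 and 1.78, with adjusted p between 0.46 and 0.75. Of the 15 genes in the basal forebrain list limma called 0 (5 higher at an unadjusted p under 0.05, or 33.3% against 9.54% of all probes). Lhx8 and Isl1, 13.3% of the list, lay above each of the other 12 fractions, against 1.04% of all probes, and 5 genes, or 33.3%, had their highest value in the block, a share near the 23% of all probes. Against fractions 7 to 9 and 13 to 15 alone, Gbx1 was 2.61 and 3.08 higher and Chat 1.36 and 1.34 higher. Ngfr differed by -0.01 and 0.42. By limma in the fit of 5 blocks none of these was called (adjusted p between 0.12 and 0.99). Chat and Gbx1 thus had a local rise in the block but higher values far from it. Lhx8 and Isl1 lay above all other fractions but were not called, and Isl1 is also on the striatal list.

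Other called genes were on none of the lists. Retnla, which encodes a secreted resistin-like protein of immune and epithelial tissue, lay at -1.95, -1.88 and -2.05 in fractions 10, 11 and 12. Of the other 12 only fraction 15, at -3.90, was well above background, so that the fitted difference of 4.55 ± 0.56 (adjusted p 0.0041) is taken mostly against background signal. Zar1l and Gm7244 were not well above background in any of the other 12 and were at least 2.99-fold and 3.63-fold higher in the block, against the lowest signal counted as above background on each array. The probes of Retnla, Zar1l and Gm7244 passed the filter on low signals only through fractions 10 to 12, so that they had to differ. Their calls among the 36 support nothing. Nkx2-3, a homeobox gene, lay at -2.59, -1.96 and -1.74 against -5.7 to -3.62, a difference of 2.70 ± 0.34 (adjusted p 0.0053), and 4 of the other 12 were above background. Unc93a lay at -3.57, -2.38 and -2.53 against -6.07 to -3.85, a difference of 2.41 ± 0.37 (adjusted p 0.016). Only 3 of the other 12 were above background for Unc93a, so that its difference too is taken mostly against background signal.

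Bright probes moved as well. Ngef, an exchange factor for small GTPases, lay at 5.37, 5.96 and 6.08 against 3.82 to 4.96 (difference 1.5 ± 0.24, adjusted p 0.022). Rasgef1b lay at 3.10, 3.54 and 3.68 against 2.05 to 2.87 (difference 0.95 ± 0.17, adjusted p 0.044). Acrbp lay at 1.93, 2.54 and 2.40 against 0.88 to 1.60, and its 3 probes differed by 0.96, 1.08 and 1.09. A single called probe named for Chchd2 differed by 2.41, whereas the brightest probe of that gene differed by 0.21 (adjusted p 0.57), and the called Mrtfb probe differed by 0.98 against 0.72 (adjusted p 0.19) for the brightest. Those calls are of the probe. Of the 36 probes 7 had no gene name, and 2 of the 7 were among the array's long non-coding RNA probes.

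Tmem163, which encodes a zinc transport protein of synaptic vesicles, lay at -6.13, -5.20 and -6.38 in fractions 10, 11 and 12 and was not well above background in any of them. It ranged from -4.66 to -2.73 in the other 12, and the difference was at least 2.18-fold (adjusted p 0.0087). Another Tmem163 probe, also not above background in the block, differed by -1.07 (adjusted p 0.21). Cbln2, which encodes a synapse organiser of the cerebellin family, lay at -0.44, -0.80 and -0.58 against 0.42 to 1.38, a difference of -1.49 ± 0.17 (adjusted p 0.0021). Piezo2, the touch-sensing channel gene, lay at -3.33, -3.34 and -3.64 against -2.39 to -0.99, a difference of -1.62 ± 0.24 (adjusted p 0.016), while another Piezo2 probe, above background in 1 fraction of the block and 6 others, differed by -0.32 (adjusted p 0.85). Vangl1, a planar cell polarity gene, lay at 0.58, 0.30 and 0.20 against 0.76 to 1.49, a difference of -0.93 ± 0.14 (adjusted p 0.015), and its other probe, lower by nearly the same amount, was not called (adjusted p 0.17). Cthrc1, Pla2g4a and Ubash3b differed by -1.19, -1.11 and -0.75. The dip was flanked on each side for Cthrc1, at -0.64 and -0.80 in fractions 9 and 13, and for Cbln2, at 0.42 and 0.49.

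Against each neighbouring block alone, 263 probes were higher (0.778%) and 240 lower (0.71%) than in fractions 7 to 9, and 589 were higher (1.74%) and 516 lower (1.53%) than in fractions 13 to 15. Both comparisons come from the fit of 5 blocks and share fractions 10 to 12. Higher than both were 37 probes (0.11%) and lower than both 10 (0.0296%), and 24 and 7 of them were also called against all other 12. The 37 held Rarb and Rxrg with both of their probes, Gpr6, Arpp21, Pde7b, Nkx2-3 and Acrbp. They also held genes that the wider comparison did not call. Drd2 was 1.23 ± 0.17 higher than in fractions 7 to 9 (adjusted p 0.015) and 1.49 higher than in 13 to 15 (adjusted p 0.0015). Adora2a was 1.80 and 1.98 higher, and Ikzf1, a zinc finger gene of striatal neurons, 2.04 and 2.67. Dct, known from pigment cells and cortical progenitors, was 2.87 and 2.23 higher. The count of 37 was 1 without fraction 11, 3 without fraction 12, 7 or 8, between 17 and 22 without fraction 2, 4, 5, 6 or 14, and 71 without fraction 13. With the slide as a fixed block limma called 0 in both directions.

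**Figure D3:**
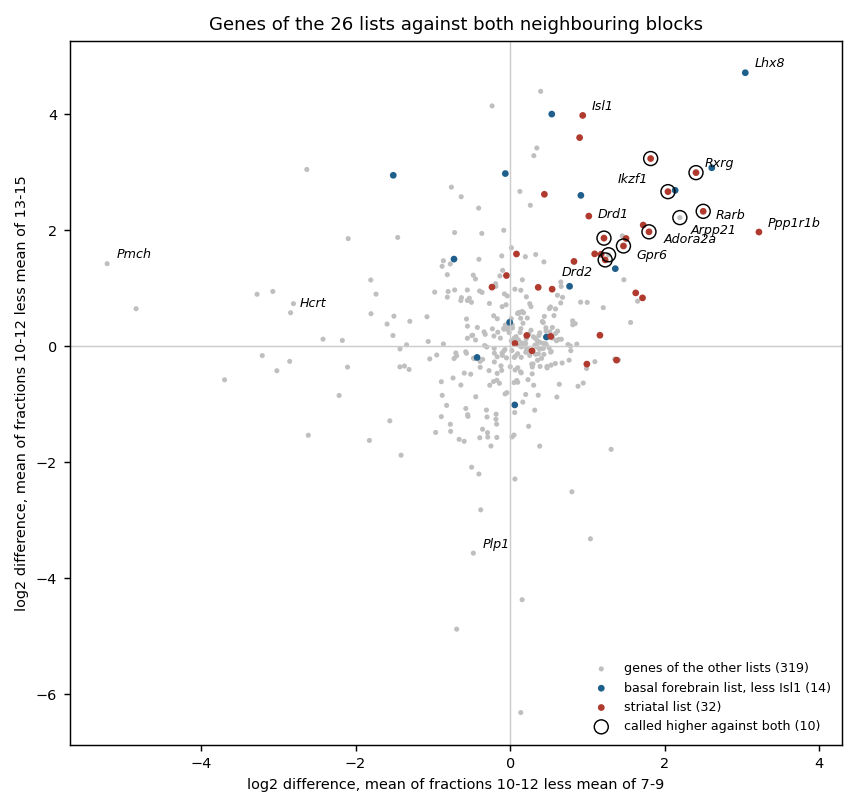
Log2 difference of fractions 10 to 12 from fractions 7 to 9 (x axis) and from fractions 13 to 15 (y axis) for the 365 measured genes of the 26 lists. Striatal genes (red) lie mostly to the upper right, and circles mark the 10 genes called higher against both blocks, among them Rarb at 2.50 and 2.33.

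Lists for other regions were also set against the block, whose position within the brain was not tested. Cortical projection neuron genes were also above 0 in all 18 members (100%, against 59.8% of all probes), with a median of 0.98. Of the 18, 3 were highest in the block (16.7%, against 23% of all probes), and the mean of the list was highest in fraction 13. Genes of the subpallial GABA lineage had a median of 0.61. Dlx1 lay at 1.89, 2.20 and 2.58 in the block, between -6.79 and -4.70 in fractions 1 to 4, and at 2.24, 3.20 and 3.29 in fractions 13 to 15. Dlx6 lay at -0.88, -0.83 and -0.66 in the block, above each of the other 12, of which fractions 14 and 15 were nearest at -0.92 and -0.91 (difference 2.43, adjusted p 0.3). Gad1 and Gad2, which encode the enzymes that make GABA, differed by -0.05 and 0.42. Thalamic, midbrain, hindbrain, cerebellar and olfactory bulb lists had medians of -1.05, -1.76, -2.06, -0.97 and -0.71. Among cell types, meningeal and fibroblast genes were below 0 in all 13 members with a median of -0.89, while 59.8% of all probes were above 0. The oligodendrocyte list had a median of -0.51, the astrocyte list -0.38, the endothelial list -0.20, the microglial list 0.12 and proliferating cells -0.17. Choroid plexus and ependymal genes had a median of 0.77. Limma called 0 genes of these lists in either direction. At an unadjusted p under 0.05 the largest count lower was 7 of 13 for the meninges (53.8%, against 4.85% of all probes). The largest count higher was 4 of 20 for the subpallial GABA lineage (20%, against 9.54% of all probes). The part of these cell types in the results above was not tested.

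**Figure D4:**
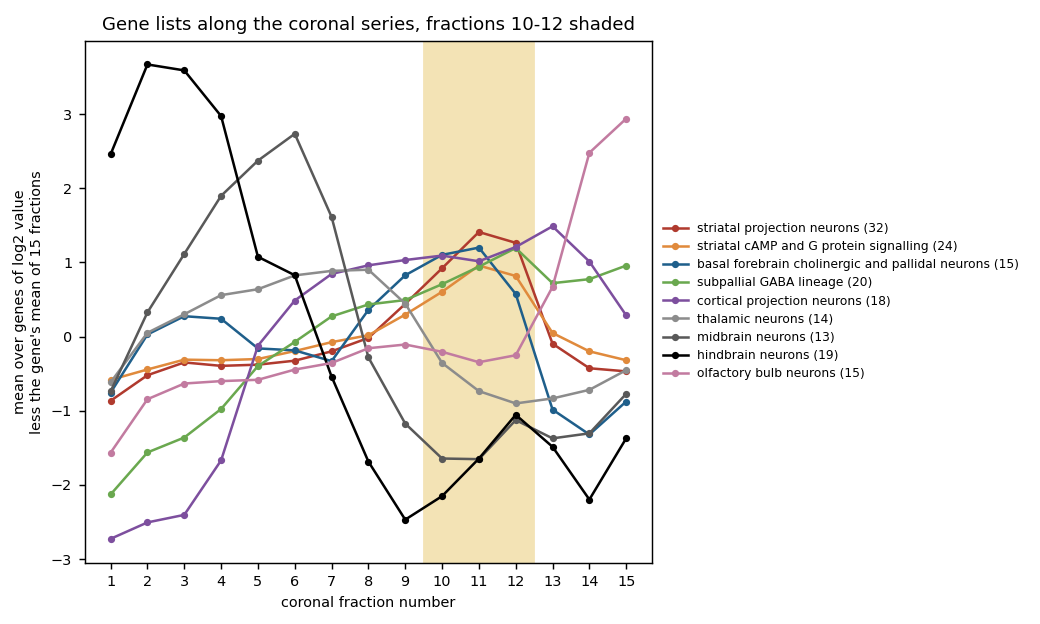
Mean log2 value of each gene list, less each gene's mean over the 15 coronal fractions, along the coronal series with fractions 10 to 12 shaded. The striatal list is highest in fraction 11 (1.41), the hindbrain list in fraction 2, the midbrain list in fraction 6 and the olfactory bulb list in fraction 15.

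The other planes come from other mice and played no part in choosing the fractions. Along the 8 horizontal fractions, 31 of the 36 probes called higher were highest in fractions 5 to 8, against 35.1% of all probes, and 31 had a slope above 0, against 41.6%. A rising slope was called for 3 of the 36 (8.33%, against 0.997% of all probes) and a falling one for 0 (0.829% of all probes). Rarb ran 0.59, 0.23, 0.07, 0.82, 1.71, 2.05, 2.16 and 2.48 over horizontal fractions 1 to 8, a slope of 0.35 ± 0.06 (SE) per fraction with an adjusted p of 0.026. Rxrg was lowest in fraction 3 (1.42) and highest in fraction 6 (4.69), with a slope of 0.42 and an adjusted p of 0.091. Lhx8 went from -7.19 in fraction 3 to 2.56 in fraction 8. The 3 probes called were both Rarb probes and Neu2, and without horizontal fraction 2, 6, 7 or 8 there were 0 and without fraction 5 there was 1. Horizontal fractions 3 and 4 lay on slide 5, the slide of coronal fraction 12, and 17 of the 36 probes were lowest in these, against 28.7% of all probes.

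Along the sagittal series most of these probes had a rise on each side of the middle. Of the 36, 30 had a mean over sagittal fractions 2 to 4 and 8 to 10 that was above both the mean of 5 to 7 and the mean of 1 and 11, against 19.8% of all probes, a summary chosen after the profiles were seen. Rxrg ran 2.57, 4.97, 4.79, 3.92, 2.45, 2.05, 2.55, 4.33, 4.63, 4.35 and 2.60 over fractions 1 to 11. Rarb was lowest, at 0.29, in fraction 6 and peaked at 2.26 in fraction 3 and 2.27 in fraction 8. Adora2a, Drd1 and Ppp1r1b were likewise lowest in fraction 6 and highest in fraction 2. Fitted as a slope on the distance from fraction 6, 27 of the 36 were above 0, against 56.7% of all probes, and 9 of the 36 rose (25%, against 18.5% of all probes) and 0 fell (10.2% of all probes), and without fraction 5, 6 or 7 the 9 became 4. Arpp21 rose by 0.53 per fraction (adjusted p 0.018) and Ngef by 0.22 (adjusted p 0.0037).

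Lhx8 and the lower genes had another sagittal shape. Lhx8 was level from fraction 3 to 9, between 0.68 and 1.12, and lay at -3.19 and -2.05 in fractions 1 and 11, with a falling slope of -0.61 (adjusted p 0.021). Isl1 and Chat fell as well, by 0.53 and 0.64 per fraction (adjusted p 0.031 and 0.0053). Of the 13 probes called lower, 8 fell with the distance from fraction 6 (61.5%, against 10.2% of all probes) and 0 rose. Cbln2 was highest in fraction 5 (1.20) and lay at -1.24 and -0.88 in fractions 1 and 11, a slope of -0.52 (adjusted p 0.0005). Tmem163 lay between -3.61 and -3.16 in fractions 4 to 9 and at -5.22 and -5.63 at the ends (slope -0.49, adjusted p 0.0027).

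**Figure D5:**
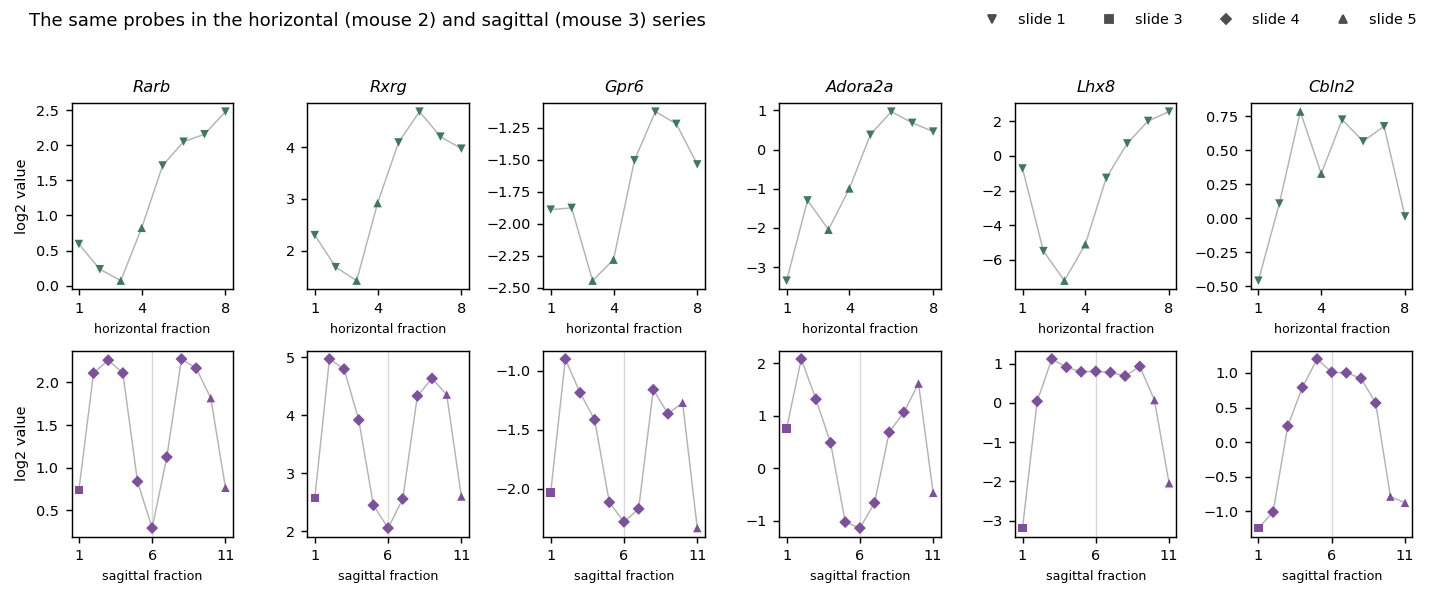
Log2 values of 6 probes in the 8 horizontal fractions of mouse 2 (top) and the 11 sagittal fractions of mouse 3 (bottom), with the slide of each array given by the marker and a line at sagittal fraction 6. Rarb, Rxrg, Gpr6 and Adora2a have a trough at sagittal fraction 6 with a rise on each side, while Lhx8 is level from fraction 3 to 9 and Cbln2 is highest in fraction 5 (1.20).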

How the data were processed

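RNA of 34 fractions (15 coronal, 8 horizontal and 11 sagittal) from 3 mice was labelled with 1 dye and hybridised to Agilent mouse arrays. The authors read intensity with Feature Extraction and deposited scanner files and a table of log2 values. Of these log2 values 99.9% lay within 0.02 of the deposited processed intensity on the log2 scale less 1 constant per array, which was within 0.0122 of the 75th percentile of the array, so that the table's scale, centring and direction are known. Fractions were grouped by the number in their labels.

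The main test was limma 3.58.1 (R 4.3.3) on the deposited log2 values of fractions 10 to 12 against the other 12, with adjusted p under 0.05. A fit of 5 blocks of 3 gave the comparisons with fractions 7 to 9 and 13 to 15, and slopes were fitted over horizontal fractions and over the distance from sagittal fraction 6, taken as the midline. Probes were kept when well above background in at least 3 coronal fractions, and a gene is represented by its probe of highest mean. A bound ("at least") uses the lowest signal counted as above background on each array. Neighbouring fractions of 1 brain are not replicates in the usual sense, and p-values measure the spread between positions of 1 animal on single arrays, whose number limits the precision. Sagittal fractions 1 and 11 entered as single arrays.

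Named genes were the up to 15 called higher and 10 called lower with the largest differences and all 3 fractions on 1 side of the median of the other 12, the 10 with the largest smaller difference from both neighbours, and a set of striatal, basal forebrain and GABA genes. Members, lists and motifs were chosen with earlier results of these data known, and Chchd2, Mrtfb, Neu2, the list members given as examples and the promoters shown were picked after their values were seen. Alternatives were other centrings, quantile normalization, normexp on scanner intensity, other filters, limma-trend, the slide as a block, slide 3 alone and each fraction left out. The fits were also run on simulated data with noise drawn separately for each fraction, which leaves out the gradual change between neighbouring fractions. There the main test called 45 of 100 probes raised by a log2 of 1, 90 of 100 raised by 2 and 8 of 33588 left unchanged. Promoters came from RefSeq. Some genes that the rule names are not reported here.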

Additional observations from a re-analysis of the deposited data

Results flagged for a closer look

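Among the 42 named genes, each searched over the 8 horizontal fractions for a single fraction far from the rest, 2 had one (4.76%), and chance alone gives about 1 in 20. Retnla lay at 0.29 in horizontal fraction 8, its highest, and the nearest fraction was at -3.91 and the lowest at -7.48, a gap of 0.540 of the whole range, above Dixon's critical value for 8 values. In 3 of the 8 fractions its signal passed background. Unc93a lay at -7.09 in horizontal fraction 2, its lowest, with the nearest at -4.82 and the highest at -3.24, a gap of 0.591 of the range, and was above background in 6 of the 8.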

How the results depend on the processing

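The number of calls depended on the setting. The 5-block fit gave 2253 and 1207, the slide as a random block 9 and 4, and the slide as a fixed block or slide 3 alone 0 and 0. Lower probes numbered 6 with normexp and 8 with at least 1 fraction above background or no filter. Against fractions 7 to 9 the count higher was 428 with normexp, 89 with at least 1, 766 with all 15 above background, 73 with no filter, 753 with limma-trend and 1 with the fixed block, and the count lower was 98 with at least 1, 447 with all 15, 76 with no filter, 510 with limma-trend and 16 with the fixed block. Against fractions 13 to 15 the count higher was 281 with normexp and 362 with no filter, and the count lower 326 with at least 1, 262 with no filter and 161 with the fixed block. Higher than both were 21, 22 and 0 probes with at least 1, no filter and the fixed block, and lower than both 2, 2 and 0, and 3 with normexp. Rising horizontal slopes among the 36 numbered 7 with normexp and 6 with limma-trend, falling ones 1 with normexp, and rising sagittal slopes 17 with normexp. The cause was not tested.

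With 1 fraction left out, the counts ran from 3 to 106 higher and 1 to 85 lower, from 1 to 1965 and 6 to 990 against fractions 7 to 9, from 113 to 1831 and 38 to 1784 against 13 to 15, from 1 to 71 higher and 0 to 61 lower than both, from 0 to 3 rising and 0 to 0 falling horizontal slopes, and from 4 to 10 rising and 0 to 0 falling sagittal slopes.

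Of 1114 values of the 42 named genes under alternatives, 903 kept direction and side of the threshold, 169 lost the call, 30 gained it and 12 changed sign, all of genes that were not called. With the slide as a fixed block, and on slide 3 alone, Ngfr was at 0.37, Dlx1 at -0.54, Dlx2 at -0.73, Dlx5 at -0.12 and Gad1 at 0.27. Gad1 was at 0.054 with the random block, and with 1 fraction left out it ran from -0.14 to 0.055. The share of calls that were higher was 73.5%, 62.7% after quantile normalization and 88.7% with normexp, and the median of all probes moved to 0.0167 and 0.123. No paired analysis was possible because the groups compared share no fraction number.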

Other observations

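Other lists were described along the same 15 coronal fractions. Immediate early genes, which neurons switch on with activity, were above 0 in 14 of 15 members (93.3%, against 59.8% of all probes) with a median difference of 0.86, and limma called 0 of them. At an unadjusted p under 0.05, 8 were higher and 1 lower (53.3% and 6.67%, against 9.54% and 4.85% of all probes), and 4 lay above all other coronal fractions (26.7%, against 1.04%). Arc lay at 0.64, 1.04 and 0.81 in fractions 10, 11 and 12 and reached at most 0.36 elsewhere, and Npas4 lay at -0.70, 0.00 and -0.35 and reached at most -0.83. Egr1 and Egr2 were the others of the 4, while Fos differed by -0.57.

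The choroid plexus gene Ttr, which encodes transthyretin, a carrier of thyroid hormone and of retinol-binding protein, lay at 7.59 and 7.54 in fractions 10 and 11, at 5.05 in fraction 12 and at 3.39 in fraction 13 (difference 1.60, adjusted p 0.59). Newborn neuron genes had a median difference of 0.51, neuropeptide precursors 0.22, hypothalamic genes 0.10, septal genes -0.17, hippocampal genes -0.24 and skeletal muscle genes -0.29. Limma called 0 genes of these lists. At an unadjusted p under 0.05, 2 of 9 septal, 2 of 9 hippocampal and 2 of 12 newborn neuron genes were higher. These are 22.2%, 22.2% and 16.7%, against 9.54% of all probes. Lower were 2 of 21 hypothalamic, 1 of 9 hippocampal and 1 of 12 newborn neuron genes. These are 9.52%, 11.1% and 8.33%, against 4.85% of all probes. The other shares of these lists were below those of all probes.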
